A study of Homo sapiens with 28 samples.

Results

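Hairpins 64 and 65 are short hairpin RNAs against MBNL1, and the data described here set them against each other in MV4;11 cells, a human acute myeloid leukemia line with an MLL-AF4 fusion. All libraries labelled MV4;11 with MBNL1 hairpin 64 (3) were compared with all libraries labelled MV4;11 with hairpin 65 (3), which makes 6 of the 28 RNA-seq libraries of the series. Hairpins were delivered by lentivirus and the cells selected with puromycin, which the labels also state for the non-targeting hairpin shNT, of which 3 MV4;11 libraries show where the controls lie but entered no test of the hairpins against each other. No source used here gives the day of the MV4;11 knockdown, and none says that the libraries came from separate cultures, so p-values measure the spread between libraries, which may be technical. The same hairpins were also used in MOLM13, an acute myeloid leukemia line with an MLL-AF9 fusion, where hairpin 64 (3 libraries) and hairpin 65 (4) each had its own shNT set (3 and 3). The question was which genes and splicing events separate a strong from a partial loss of MBNL1, and which separate the hairpins in another order than MBNL1 itself.

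MBNL1 is a muscleblind-like RNA-binding protein that binds YGCY motifs in pre-mRNA. In general it favours skipping of an exon when it binds within or before it, and inclusion when it binds after it. Its relative MBNL2 can take over many of the same exons. A hairpin acts through the RNA interference machinery and can also lower transcripts other than its target, so the order of the groups matters: a gene that follows MBNL1 level lies further from the controls with the stronger hairpin.

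The 6 hairpin libraries were alike in quality. The reads per library are not in the files used here, and depth was estimated from the steps between low values, which put the hairpin 64 libraries at 85 to 93.2% and the hairpin 65 libraries at 82.0 to 100% of the deepest, against 70.7 to 90.9% for shNT. Expression profiles correlated at 0.9944 to 0.9961 within hairpin 64, 0.9911 to 0.9957 within hairpin 65 and 0.9809 to 0.9881 between them (Pearson's r across genes, which are not independent replicates). shNT replicate 3 stood apart from the other shNT libraries (r 0.9602 and 0.9747) and was nearer the hairpin libraries (0.9847 to 0.9892), so positions of the controls are also given without it. All 15 defining markers of a myelomonocytic MLL-rearranged line had a mean of at least 1 RPKM (reads per kilobase of transcript, scaled to the mapped reads of the library) in each MV4;11 group. Their summed level was 1832 to 1953 RPKM with hairpin 64, 1192 to 1243 with hairpin 65 and 2235 to 3217 with shNT. The 22 markers of other cell types summed to 13.6 to 15.1, 14.4 to 16.6 and 6.74 to 10.2 RPKM, with 14 or 15 of them under 0.1 RPKM in each group. The highest of that list with either hairpin was the T-cell receptor component CD3D, with 6.84 ± 0.315, 10.0 ± 0.88 and 2.89 ± 0.697 RPKM. The epithelial keratin KRT18 had 4.61, 4.76 and 3.94 RPKM with hairpin 64, 2.96, 3.05 and 2.93 with hairpin 65, and 3.22, 3.92 and 4.64 with shNT. KRT8, the other marker with a mean of at least 1 RPKM in any group, had 1.14, 1.44 and 1.23 RPKM with hairpin 64. The part of these markers in the results below was not tested.

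Hairpin 64 gave the stronger and hairpin 65 a partial loss of MBNL1. The gene measured 3.62, 3.54 and 3.98 RPKM with hairpin 64, 10.7, 12.8 and 12.4 RPKM with hairpin 65, and 23.3, 25.4 and 18.5 RPKM with shNT. The 3 groups did not overlap, and hairpin 65 lay between the others in every library. The means were 3.72 ± 0.236, 12.0 ± 1.07 and 22.4 ± 3.53 RPKM (mean ± SD, n = 3 each), so hairpin 64 left 16.6% and hairpin 65 left 53.3% of the control level, or 15.2% and 49.1% of shNT replicates 1 and 2. MBNL1 was 3.22 times as high with hairpin 65 as with hairpin 64 (hairpin 64 minus hairpin 65 on the log2 scale, -1.46 with a standard error of 0.08, adjusted p = 3.28e-05, limma). An exact two-sided permutation test on the 6 libraries gave p = 0.1, the smallest that 3 against 3 allows. In MOLM13 the order was the same, with 3.23 ± 0.493 RPKM for hairpin 64 against 22.5 ± 5.34 in its shNT set and 12.7 ± 3.13 for hairpin 65 against 18.9 ± 1.34. The relatives were hardly expressed. MBNL2 had 0.677 ± 0.0771, 0.502 ± 0.0258 and 0.445 ± 0.128 RPKM and MBNL3 had 0.252 ± 0.0401, 0.451 ± 0.117 and 0.326 ± 0.098 RPKM with hairpin 64, hairpin 65 and shNT, all under the minimum mean of 1 RPKM for a test.

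Of 10227 tested genes, 346 differed between the hairpins by at least 1.5-fold with a p, before adjustment, of at most 0.01 (3.38% of genes tested), 159 higher with hairpin 64 (1.55%) and 187 lower (1.83%). All fold changes are on the log2(RPKM + 1) scale, hairpin 64 minus hairpin 65, and understate the change of low genes. The share of called genes that were higher with hairpin 64 was 46%, and it was 38% with 0.1 and 59.2% with 5 in place of 1 as the added constant. At an adjusted p under 0.05 and the same fold, 348 genes passed (3.4%), so the adjustment did not limit the count. In 345 of the 346 genes the hairpin libraries did not overlap, which was true of 41.5% of all tested genes. At least 2-fold differences were found in 52 genes. The median log2 difference over all tested genes was -0.03.

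The controls place each difference. On a line from the hairpin 65 mean (0) to the hairpin 64 mean (1), the shNT mean of 134 called genes lay within 0.25 of hairpin 65 (38.7%, against 13.4% of all tested genes), that of 118 lay midway (34.1%, against 12.8%), and that of 52 lay within 0.25 of hairpin 64 (15%, against 8.33%). Only 31 called genes had hairpin 65 clearly between shNT and hairpin 64, as MBNL1 does (8.96%, against 41%), and 11 had hairpin 64 between shNT and hairpin 65 (3.18%, against 24.5%). A gene where the hairpins act alike cannot be called, so the called genes are short of the last 2 kinds by construction. The shares of the other kinds together are raised by the same construction. Without shNT replicate 3 the 5 shares were 35, 26.6, 13.6, 17.3 and 7.51%. Every such position uses the same shNT libraries for both hairpins.

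**Figure D1:**
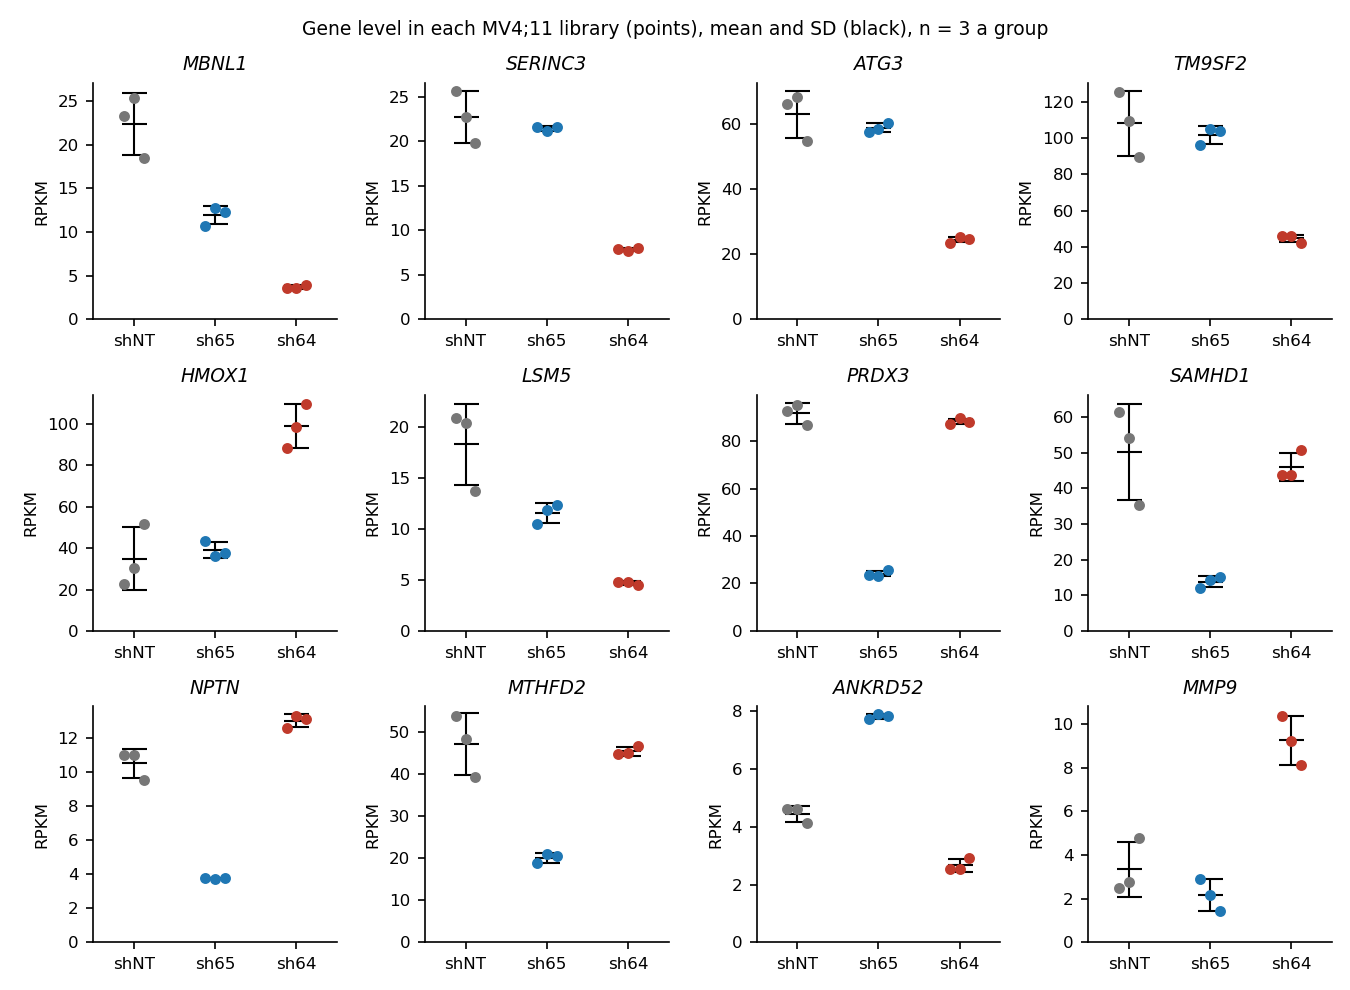
Level of 12 genes in each MV4;11 library, in RPKM, with 1 point per library and black bars at the mean ± SD, for shNT, hairpin 65 (sh65) and hairpin 64 (sh64). MBNL1 steps from hairpin 64 through hairpin 65 to shNT, SERINC3 departs with hairpin 64 (7.86 against 22.7 RPKM in shNT) and PRDX3 departs with hairpin 65 (24.2 against 91.7 RPKM).

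The genes that departed with hairpin 64 and lay near the controls with hairpin 65 included some of the largest differences of the comparison. SERINC3, a serine incorporator of the plasma membrane, measured 7.87, 7.72 and 7.98 RPKM with hairpin 64, 21.6, 21.2 and 21.6 RPKM with hairpin 65, and 25.7, 22.7 and 19.8 RPKM with shNT. The hairpin 64 libraries lay apart from all others, and the hairpin 65 libraries lay within the controls (-1.34 on the log2 scale with a standard error of 0.06, adjusted p = 1.68e-05, limma). ATG3, the enzyme that conjugates LC3 to lipid in autophagy, had 24.5 ± 0.805, 58.9 ± 1.41 and 63.0 ± 7.27 RPKM (-1.23 on the log2 scale, adjusted p = 2.74e-05, limma). TM9SF2, a membrane protein of the Golgi and endosomes, had 44.6 ± 2.14, 102 ± 4.82 and 108 ± 18.1 RPKM (-1.17, adjusted p = 3.73e-05, limma). ACSS2, which makes acetyl-CoA from acetate, had 4.13 ± 0.383, 10.3 ± 0.84 and 8.79 ± 0.164 RPKM. In the other direction stood HMOX1, the heme oxygenase induced by oxidative stress, at 88.3, 98.8 and 110 RPKM with hairpin 64, 43.4, 36.0 and 37.7 RPKM with hairpin 65 and 22.6, 30.6 and 51.9 RPKM with shNT. Its hairpin 64 libraries were the highest, and its hairpin 65 libraries overlapped the controls, which were themselves spread out (log2 fold change 1.32, adjusted p = 0.000131, limma). A response that begins only at the lower MBNL1 level and an effect of hairpin 64 apart from MBNL1 cannot be told apart from these libraries.

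A smaller set moved the other way round, with hairpin 65 apart and hairpin 64 at the control level, although hairpin 65 left more MBNL1. PRDX3, a mitochondrial peroxiredoxin, measured 87.4, 89.7 and 88.1 RPKM with hairpin 64, 23.7, 23.3 and 25.6 RPKM with hairpin 65, and 92.8, 95.4 and 87.0 RPKM with shNT. Its hairpin 64 libraries overlapped the controls and every hairpin 65 library lay far under both (1.83 on the log2 scale with a standard error of 0.07, adjusted p = 7.53e-06, limma). NPTN, the cell adhesion molecule neuroplastin, had 12.6, 13.3 and 13.1 RPKM, then 3.79, 3.70 and 3.77, then 11.0, 11.0 and 9.53 in the same order of groups (log2 fold change 1.56, adjusted p = 8.47e-06, limma). The hairpin 65 libraries were again the lowest and the hairpin 64 libraries lay slightly over shNT. SAMHD1, the dNTP hydrolase that limits retroviral replication, had 46.1 ± 3.93, 13.8 ± 1.54 and 50.2 ± 13.5 RPKM (1.67, adjusted p = 3.59e-05, limma). MTHFD2, a mitochondrial enzyme of folate metabolism, had 45.4 ± 1.01, 20.1 ± 1.15 and 47.1 ± 7.3 RPKM (1.14, adjusted p = 3.73e-05, limma). LITAF (5.61, 1.44 and 4.20 RPKM), LYPLA1 (65.3, 33.2 and 75.7) and CCDC43 (8.52, 3.82 and 8.84) were ordered likewise. These levels do not follow MBNL1, which was lower with hairpin 64 than with hairpin 65 in every library.

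Genes with the controls in between moved apart in opposite directions. ANKRD52, a regulatory subunit of protein phosphatase 6, had 2.67 ± 0.227, 7.82 ± 0.0934 and 4.45 ± 0.273 RPKM (-1.27, adjusted p = 3.2e-05, limma). ITGA4, the integrin chain of VLA-4, had 18.2 ± 0.883, 39.1 ± 4.09 and 32.4 ± 8.76 RPKM, where hairpin 65 overlapped the controls. BTN3A2, a butyrophilin, had 2.83 ± 0.4, 7.88 ± 0.551 and 5.66 ± 0.682 RPKM.

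Among the genes with the order of MBNL1, LSM5, a Sm-like protein of the U6 snRNP, measured 4.84, 4.80 and 4.50 RPKM with hairpin 64, 10.5, 11.8 and 12.4 RPKM with hairpin 65, and 20.8, 20.3 and 13.7 RPKM with shNT. It rose by group with no overlap (log2 fold change -1.13, adjusted p = 8.46e-05, limma). CREG1, a lysosomal glycoprotein, had 9.79 ± 0.112, 24.1 ± 1.2 and 30.2 ± 2.88 RPKM (-1.22, adjusted p = 3.2e-05, limma). CFAP20, a cilia-associated protein, had 3.21 ± 0.234, 8.28 ± 0.176 and 10.3 ± 0.273 RPKM (-1.14, adjusted p = 3.73e-05, limma). CSF1R, the receptor of macrophage colony-stimulating factor, ran the other way, with 27.7 ± 0.393, 17.3 ± 1.43 and 14.8 ± 1.11 RPKM (0.65, adjusted p = 0.000766, limma).

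Several myeloid effector genes were higher with hairpin 64 than with hairpin 65. Of 22 tested genes of myeloid differentiation, 4 were called higher and 0 lower (background 1.55 and 1.83%), with a median log2 difference of 0.12 against -0.03 over all genes. Without the fold minimum, 8 were higher and 4 lower at an unadjusted p under 0.05, the lower ones being CSF3R (20.4, 28.4 and 23.1 RPKM), FCGR2A, ITGAM and MNDA. The called genes were LYZ, MPO, S100A8 and CSF1R, of which 2 were called with 5 as the added constant. MPO, the myeloperoxidase of neutrophil granules, had 6.81, 6.20 and 5.35 RPKM with hairpin 64, 1.64, 1.18 and 0.829 with hairpin 65, and 1.83, 2.32 and 3.87 with shNT (log2 fold change 1.69, adjusted p = 0.000144, limma). Every hairpin 64 library lay over every other library, and the hairpin 65 libraries were the lowest. LYZ, lysozyme, had 1404 ± 66.4, 680 ± 34.3 and 2313 ± 518 RPKM, so both hairpins lay under the controls and hairpin 65 lay lowest (1.04, adjusted p = 8.46e-05, limma). In these bulk libraries fewer cells of a type and less RNA per cell cannot be told apart. S100A8, a calcium-binding protein of myeloid cells, had 3.38 ± 0.485, 0.866 ± 0.289 and 1.62 ± 0.109 RPKM. Among 6 tested cytokines and chemokines, 2 were higher with hairpin 64 and 0 lower (median 0.25). IL1B had 10.1 ± 0.953, 2.41 ± 0.112 and 4.81 ± 0.58 RPKM, with the controls in between (1.70, adjusted p = 1.68e-05, limma), and CXCL8 had 9.84 ± 0.753, 4.61 ± 0.311 and 12.7 ± 4.19 RPKM. MMP9, the matrix metalloproteinase of neutrophils and macrophages, had 9.25 ± 1.12, 2.17 ± 0.736 and 3.34 ± 1.26 RPKM (1.71, adjusted p = 0.000277, limma). Of 27 tested lysosome and phagocyte oxidase genes 3 were higher and 0 lower (median 0.16). They were CYBB, the catalytic chain of the phagocyte oxidase, with 10.6 ± 1.2, 4.24 ± 0.127 and 11.8 ± 3.17 RPKM, NCF1, another subunit whose near-identical pseudogenes make its level uncertain, and the protease cathepsin D, CTSD, with 268 ± 9.71, 171 ± 36 and 149 ± 53.2 RPKM.

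Most tested p53 targets leaned higher and most genes of sterol and fatty acid synthesis lower with hairpin 64, though few were called. Of 20 tested p53 targets, 4 were called higher with hairpin 64 (1.55% of all genes) and 0 lower (1.83%), and 17 had a positive difference, against 45.5% of all tested genes (median 0.20). Without the fold minimum, 9 were higher and 1 lower at an unadjusted p under 0.05, where 15.9% and 22.4% of all tested genes were. CDKN1A, the cyclin-dependent kinase inhibitor p21, measured 91.6, 81.5 and 81.6 RPKM with hairpin 64, 56.1, 44.9 and 40.4 with hairpin 65, and 39.3, 49.5 and 71.4 with shNT. Its hairpin 64 libraries lay over all others and the others overlapped (0.85, adjusted p = 0.00173, limma). PMAIP1, the proapoptotic NOXA, had 2.02 ± 0.112, 1.00 ± 0.11 and 0.681 ± 0.199 RPKM (0.60, adjusted p = 0.000912, limma). RRM2B, a ribonucleotide reductase subunit, had 26.7 ± 1.4, 17.1 ± 1.58 and 25.7 ± 7.41 RPKM, so there hairpin 65 was the lower and hairpin 64 lay with the controls, and BTG2 was the fourth. With 5 as the added constant 1 of these 4 calls was left. PMAIP1 was also not called without hairpin 64 replicate 1 or hairpin 65 replicate 3, nor RRM2B without hairpin 65 replicate 1. Of 23 tested genes of cholesterol and fatty acid synthesis, 2 were called lower with hairpin 64, 0 were called higher, and 3 had a positive difference (median -0.24). Without the fold minimum, 14 were lower and 1 higher at an unadjusted p under 0.05. DHCR7, which catalyses the last step of cholesterol synthesis, had 6.41 ± 0.123, 10.9 ± 0.387 and 11.1 ± 1.78 RPKM (-0.69, adjusted p = 0.000246, limma), and FADS2, a fatty acid desaturase, had 3.02 ± 0.316, 6.07 ± 0.368 and 6.21 ± 0.665 RPKM (-0.82, adjusted p = 0.000359, limma). Neither call was left with 5 as the added constant. Of 20 tested genes of the integrated and endoplasmic reticulum stress response, 2 were higher and 0 lower (median 0.14), namely NUPR1 (4.16, 2.24 and 2.96 RPKM) and the cystine transporter SLC7A11 (9.48, 5.19 and 7.21 RPKM). With 5 as the added constant 0 of these were called by limma, and NUPR1 was also not called without hairpin 64 replicate 1. At an unadjusted p under 0.05, 8 of the list were higher and 5 lower.

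Genes of the leukemia program leaned lower with hairpin 64, without a call. Of 18 tested genes of the MLL fusion program 0 were called by limma, where 1.55% of all tested genes were called higher and 1.83% lower. At those shares a list of 18 can hold 0 by its size alone. The median was -0.14, against -0.03 over all tested genes. Without the fold minimum, 8 were lower and 2 higher with hairpin 64 at an unadjusted p under 0.05 (22.4% and 15.9% of all tested genes were), and with 0.1 as the added constant 1 was called lower. Among these, MEIS1 (2.54, 4.07 and 2.68 RPKM, log2 fold change -0.52, adjusted p = 0.0038, limma) and MEF2C (11.6, 17.3 and 11.7 RPKM, -0.54, adjusted p = 0.00137, limma), transcription factors of the program, were lower with hairpin 64 than with hairpin 65, which was the group apart from the controls. FLT3, the receptor tyrosine kinase, had 155 ± 9.03, 207 ± 9.21 and 234 ± 39.6 RPKM (-0.42, adjusted p = 0.00506, limma). Of the 12 tested genes of the small RNA machinery, which both hairpins use, 1 was called, where 1.55% of all tested genes were called higher and 1.83% lower. It was the slicer AGO2, higher with hairpin 64, at 19.2 ± 1.82, 11.4 ± 0.846 and 13.3 ± 0.272 RPKM (0.70, adjusted p = 0.00109, limma). That call was lost with 5 as the added constant, and the list's median was -0.06. Of 12 tested genes of the interferon and double-stranded RNA response 0 were called by limma. At an unadjusted p under 0.05, 3 were lower and 0 higher, where 22.4% and 15.9% of all tested genes were. The list's median was -0.03, and 0.01 after quantile normalization.

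Splicing separated the hairpins as well. PSI, the percent of junction reads that support an event, was tested for 76590 events in 22147 clusters of overlapping junctions. With the same limit on p and a difference over 10 points, 885 events (1.16%) passed, in 556 clusters (2.51%) and 538 genes. In the called clusters the median size of the difference was 16.47 points, and 205 exceeded 20 points. Adjusted for all events, 55 events in 40 clusters passed (0.0718% of events). Of the 260 genes called in level that had a tested cluster, 22 also had a called cluster (8.46%), against 5.54% of the 8716 genes tested for both, and these 22 were 4.55% of the 483 genes with a called cluster and a tested level. Cassette exons gave 279 of the called clusters (3.75% of those tested, or 3.76% of those with a known direction), alternative promoters 40 (3.91%), retained introns 78 (1.44%), alternative 3' sites 35, alternative 5' sites 27, and 69 had no annotated type. Of 7366 cassette-exon clusters with a known direction, 184 were included less with hairpin 64 than with hairpin 65 (2.5%) and 93 more (1.26%). Averaged over the 22741 cassette events measured in all 6 libraries, inclusion was 61.23, 61.26 and 61.33% with hairpin 64 and 61.67, 61.80 and 61.71% with hairpin 65. Every hairpin 64 library lay under every hairpin 65 library, by 0.452 points in the mean (exact two-sided permutation test, p = 0.1, the smallest that 3 against 3 allows).

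The controls placed called clusters in all 5 ranges. The shNT mean of 112 of 525 called clusters with control values placed hairpin 65 between shNT and hairpin 64 (21.3%, against 25% of all tested clusters), and in 184 (35%, against 19.6%) hairpin 65 lay at the controls. The other ranges held 144 clusters with shNT midway (27.4%, against 17.3%), 61 with hairpin 64 at the controls (11.6%, against 17.2%) and 24 with hairpin 64 between shNT and hairpin 65 (4.57%, against 20.8%). Without shNT replicate 3 these 5 shares were 27.8, 32.6, 21.9, 13.4 and 4.33% of 485 clusters. As for genes, calling on the difference between the hairpins lowers the first and last of these shares by construction. It raises the others together. Among genes known from textbooks as MBNL splicing targets, 9 of 41 tested clusters were called (22%, against 2.51% of all), in CD47, GIT2, INF2, INSR, LRRFIP2, MBNL1, MTMR1, NUMA1 and NUMB. The calls of INSR and MTMR1 were each lost with the replicate number as a block and without hairpin 64 replicate 1, hairpin 65 replicate 2 or hairpin 65 replicate 3, that of INSR also without hairpin 65 replicate 1 and that of MTMR1 without hairpin 64 replicate 2. Among splicing genes named by the study, which were chosen on these samples and are not independent evidence, 16 of 76 were called (21.1%). CD47, INF2, MBNL1 and NUMB are on both lists. The textbook list was also drawn up with earlier results of these data known, so it is not independent evidence either.

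Exons from both kinds described next, graded and apart with hairpin 64 alone, are shown, with each flank that holds at least 12 YGCY sites, because the sites of MBNL binding are short enough to be read by eye. In the sequences below capitals mark the YGCY motif on the transcribed strand, that is GC with a C or T on each side, so that TGCT is a match, and overlapping matches run together. They were read from GRCh37, 5′ to 3′, and every exon lies within annotated coding sequence. Exons included more with hairpin 64 were those of MBNL1 (chr3:152164493-152164546, plus strand), NUMB (chr14:73745989-73746132, minus strand), EXOC1 (chr4:56755054-56755098, plus strand) and DNM2 (chr19:10908056-10908194, plus strand). Those included less were LRRFIP2 (chr3:37132958-37133029, minus strand), MTA1 (chr14:105933044-105933079, plus strand), TSPOAP1 (chr17:56385902-56385952, minus strand), SYK (chr9:93629413-93629481, plus strand) and FLNA (chrX:153585619-153585642, minus strand). For TSPOAP1 the bases before the printed stretch do not end in AG, the usual end of an intron. That stretch may be only the last part of a longer exon.
MBNL1, 250 bases before the exon: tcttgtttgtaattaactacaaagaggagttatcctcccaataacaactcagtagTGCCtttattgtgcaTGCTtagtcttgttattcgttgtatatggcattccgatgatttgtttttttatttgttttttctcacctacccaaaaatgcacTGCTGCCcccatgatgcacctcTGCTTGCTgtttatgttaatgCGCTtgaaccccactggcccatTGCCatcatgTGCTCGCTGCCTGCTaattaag
MBNL1 exon: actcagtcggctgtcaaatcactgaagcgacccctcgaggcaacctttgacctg
NUMB exon: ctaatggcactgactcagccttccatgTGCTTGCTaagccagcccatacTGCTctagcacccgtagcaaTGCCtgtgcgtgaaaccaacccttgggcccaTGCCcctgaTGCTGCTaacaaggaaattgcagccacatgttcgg
EXOC1 exon: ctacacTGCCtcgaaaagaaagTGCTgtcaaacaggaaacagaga
DNM2 exon: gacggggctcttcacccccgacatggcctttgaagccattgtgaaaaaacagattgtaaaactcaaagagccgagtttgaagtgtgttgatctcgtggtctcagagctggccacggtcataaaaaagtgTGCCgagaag
LRRFIP2 exon: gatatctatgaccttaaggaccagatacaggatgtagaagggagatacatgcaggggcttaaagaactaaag
MTA1 exon: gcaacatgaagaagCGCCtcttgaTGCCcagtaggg
TSPOAP1 exon: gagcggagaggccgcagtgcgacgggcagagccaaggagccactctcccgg
TSPOAP1, 250 bases after the exon: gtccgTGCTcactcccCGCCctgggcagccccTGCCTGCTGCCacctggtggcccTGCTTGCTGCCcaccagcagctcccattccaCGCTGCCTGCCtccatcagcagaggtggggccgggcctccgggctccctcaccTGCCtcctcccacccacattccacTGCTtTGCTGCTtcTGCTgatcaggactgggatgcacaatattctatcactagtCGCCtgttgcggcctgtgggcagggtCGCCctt
SYK exon: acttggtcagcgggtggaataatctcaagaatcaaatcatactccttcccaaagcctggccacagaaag
SYK, 250 bases after the exon: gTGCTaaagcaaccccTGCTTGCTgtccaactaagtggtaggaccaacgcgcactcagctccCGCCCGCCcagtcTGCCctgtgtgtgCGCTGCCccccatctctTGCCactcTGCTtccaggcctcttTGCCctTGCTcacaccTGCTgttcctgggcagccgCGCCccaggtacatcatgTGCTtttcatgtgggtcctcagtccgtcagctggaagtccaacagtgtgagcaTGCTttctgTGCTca
FLNA, 250 bases before the exon: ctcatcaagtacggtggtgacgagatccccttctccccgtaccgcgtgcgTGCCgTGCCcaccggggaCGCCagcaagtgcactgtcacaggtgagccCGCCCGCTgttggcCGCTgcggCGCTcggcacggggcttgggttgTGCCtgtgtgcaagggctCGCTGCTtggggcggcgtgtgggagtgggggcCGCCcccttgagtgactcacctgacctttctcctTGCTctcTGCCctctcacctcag
FLNA exon: tgtcaatcggaggtcacgggctag

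The 54-base MBNL1 exon, which encodes part of a nuclear localization signal and is known to be skipped by MBNL1 itself, was included at 81.8, 80.1 and 71.9% with hairpin 64, 37.9, 36.9 and 28.7% with hairpin 65 and 11.8, 9.47 and 12.2% with shNT. Its groups did not overlap and stood in the order of MBNL1 loss (difference 43.4 points, standard error 4.03, adjusted p = 0.102, limma). The 12 sites in the 250 bases before this exon are reached by 0.789% of 7101 tested cassette exons. NUMB, an adaptor that antagonises Notch, carried its 144-base exon at 68.9, 65.8 and 65.4%, then 40.7, 32.9 and 33.3%, then 8.84, 7.37 and 11.5% (31.1 points, adjusted p = 0.08, limma), again with no overlap, and this exon itself holds 7 sites, as do or exceed 4.58% of exons. The DNM2 exon, in a dynamin that pinches off membrane vesicles, was included at 73.7, 73.6 and 75%, then 38.8, 38.6 and 36.6%, then 22.7, 25 and 22.8% (36.1 points, standard error 0.784, adjusted p = 0.00485, limma). The libraries of a group differed by under 3 points, far less than the steps between groups. In EXOC1, a subunit of the exocyst, the 45-base exon stood at 54.0 ± 6.35, 15.0 ± 3.09 and 1.49 ± 1.36% (39.0 points, adjusted p = 0.117, limma). The formin-like FMNL3 included a 153-base exon at 93.8 ± 1.22, 54.4 ± 1.18 and 22.3 ± 2.62% (39.4 points, adjusted p = 0.00561, limma). ACTN4, an actin-crosslinking actinin, included its 86-base exon at 34.2 ± 2.23, 7.52 ± 0.957 and 1.47 ± 0.0993% (26.7 points, adjusted p = 0.0347, limma), so that most of its rise came between hairpin 65 and hairpin 64.

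Exons lost in grades included the following. INF2, a formin, included its 57-base exon at 16.8 ± 2.33, 50.4 ± 2.33 and 88.2 ± 9.51% (-33.7 points, adjusted p = 0.038, limma). The spindle protein NUMA1 had 5.7 ± 2.14, 28.2 ± 2.2 and 70.3 ± 6.25% for a 42-base exon (-22.5 points, adjusted p = 0.0601, limma). In both exons hairpin 65 had already moved far from the controls. LRRFIP2, an adaptor of Toll-like receptor signalling, included its 72-base exon at 12.7, 9.76 and 13.1% with hairpin 64, 56.2, 62.6 and 68.5% with hairpin 65, and 89.1, 84.1 and 77.1% with shNT (-50.6 points, adjusted p = 0.0538, limma), 3 groups in order without overlap. BAZ2B, a bromodomain protein, had 23.4 ± 3.58, 76.0 ± 3.81 and 95.0 ± 4.49% (-52.6 points, adjusted p = 0.0385, limma). The mitochondrial thioesterase ACOT9 had 18.2 ± 2.34, 76.5 ± 6 and 94.9 ± 1.47% (-58.3 points, adjusted p = 0.0455, limma), and phospholipase D1, PLD1, had 25.1 ± 4.62, 75.3 ± 3.49 and 97.5 ± 4.36% (-50.2 points, adjusted p = 0.0474, limma). SCARB1, whose 129-base exon separates the tails of the lipoprotein receptors SR-BI and SR-BII, had 21.2 ± 2.32, 64.2 ± 1.39 and 76.3 ± 6.69% (-43.0 points, adjusted p = 0.0155, limma).

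**Figure D2:**
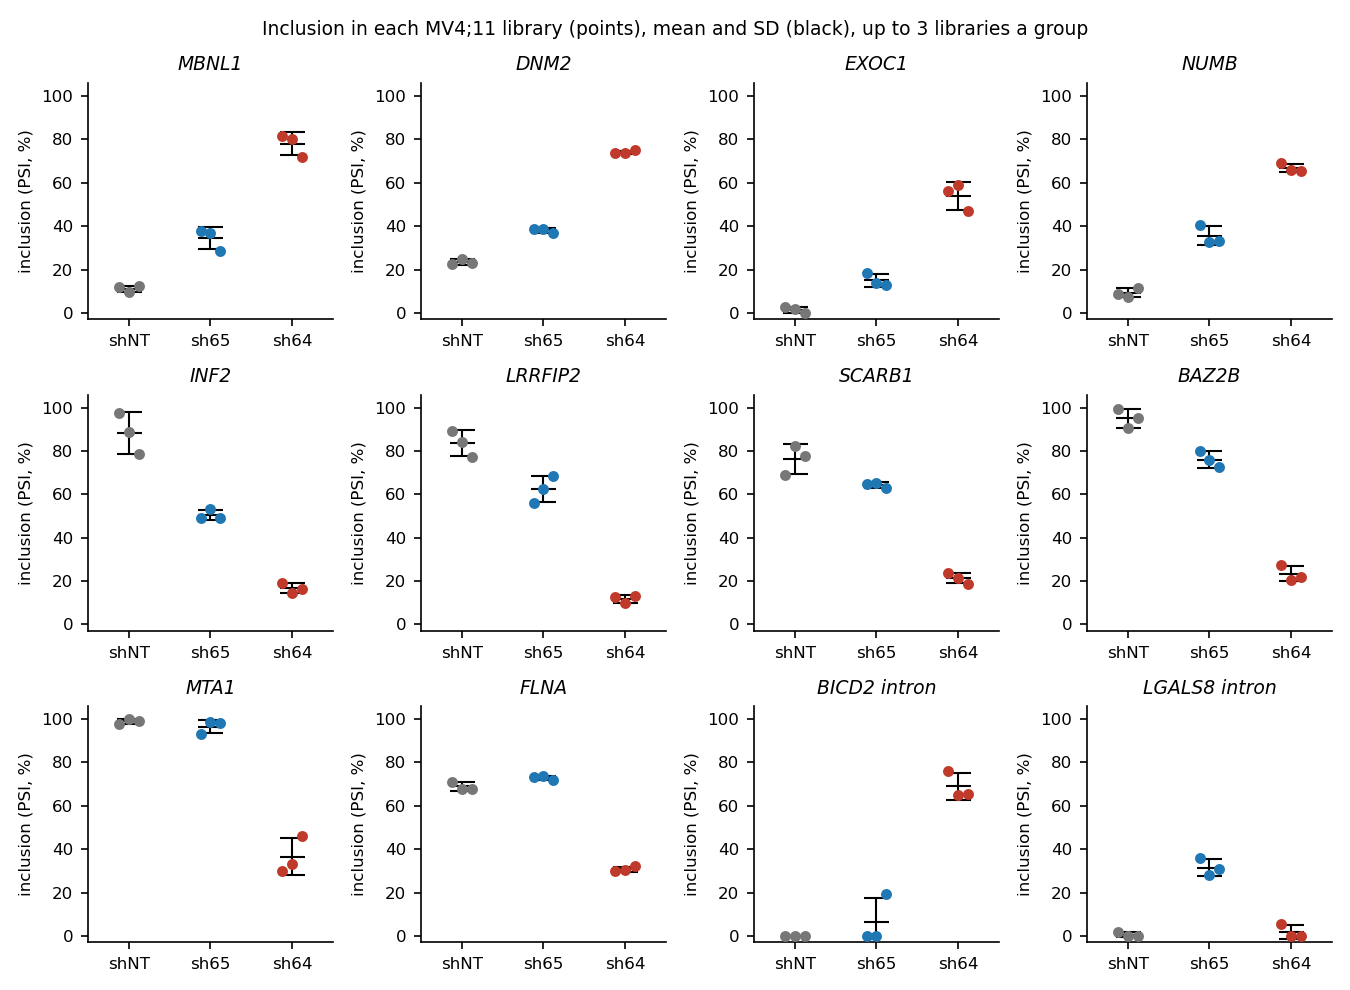
Inclusion (PSI, %) of 10 cassette exons and 2 retained introns in each MV4;11 library, with 1 point per library and black bars at the mean ± SD, for shNT, hairpin 65 (sh65) and hairpin 64 (sh64). DNM2 and NUMB fall in steps from hairpin 64 to shNT, INF2 and LRRFIP2 rise in steps, MTA1 and FLNA differ with hairpin 64, and the LGALS8 intron is retained with hairpin 65 (31.5% against 0.606% in shNT).

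A second kind of exon was lost with hairpin 64 while hairpin 65 stayed near the controls. MTA1, a subunit of the NuRD chromatin remodeler, included its 36-base exon at 30.1, 33.2 and 46.1% with hairpin 64, 93.0, 98.4 and 97.9% with hairpin 65, and 97.5, 100 and 99.2% with shNT. Hairpin 64 stood alone, and hairpin 65 overlapped shNT (-60.0 points, adjusted p = 0.0757, limma). TSPOAP1, a binding partner of the mitochondrial translocator protein, had 36.9, 33.3 and 21.8%, then 89.2, 91.2 and 91.3%, then 97.3, 95.5 and 96.5% for an exon listed here with 51 bases (-59.9 points, adjusted p = 0.0582, limma), so hairpin 65 lay a little under the controls without overlap. Its 18 sites after the exon are matched by 0.0282% of tested exons. The start and length of the TSPOAP1 exon are uncertain, so the bases before it were not read as intron. The 24-base exon of FLNA, an actin-crosslinking filamin, was included at 29.7, 30.2 and 32.0%, then 73.2, 73.8 and 71.9%, then 71.1, 67.8 and 67.8% (-42.3 points, standard error 0.846, adjusted p = 0.00393, limma), where the hairpin 65 libraries lay over every control. The FLNA exon has most of its sites before it, 13 against 5 after it. The kinase SYK included the 69-base exon that sets apart its long and short forms at 83.0 ± 1.78, 98.6 ± 0.0926 and 99.8 ± 0.354% (-15.6 points, adjusted p = 0.047, limma), with 17 sites or more after the exon in 0.0845% of tested exons. CRTC1, a CREB coactivator, had 52.3 ± 3.22, 86.8 ± 2.13 and 80.8 ± 7.93% (-34.5 points, adjusted p = 0.0455, limma). An exon already near full inclusion has little room to rise, so these positions depend on the range of PSI.

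The event with the smallest p lay in LGALS9, galectin-9, with 3.36, 3.51 and 3.95% for hairpin 64, 22.6, 22.4 and 22.4% for hairpin 65, and 34.0, 34.5 and 33.7% for shNT (-18.9 points, standard error 0.182, adjusted p = 0.000955, limma). The authors' software lists it as trans-splicing. LGALS9 has near-identical copies, and its copy LGALS9DP was also among the leading events (13.2 ± 1.37, 58.7 ± 1.33 and 80.0 ± 1.71%), so the locus that gave these reads is uncertain.

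Mean intron retention overlapped between the hairpins. Over the 21581 intron events measured in all 6 libraries, mean retention was 8.34, 7.81 and 7.42% with hairpin 64 and 6.62, 8.81 and 7.61% with hairpin 65, which overlapped (exact two-sided permutation test, p = 0.9). Of 4998 intron clusters with a direction, 45 were retained more with hairpin 64 (0.9%) and 23 less (0.46%). These counts depended on single libraries. Without hairpin 65 replicate 2, which had the highest mean retention, 80 were retained more, without hairpin 64 replicate 3, 79, and without hairpin 65 replicate 1, which had the lowest, 85 were retained less. The following 3 introns retained with hairpin 64 were measured in all 9 libraries. BICD2, a dynein adaptor, retained an intron at 76.2, 65.1 and 65.6% with hairpin 64, 0, 0 and 19.4% with hairpin 65 and 0% in each shNT library (62.5 points, adjusted p = 0.146, limma), so that hairpin 64 was clear of all others. DNM1, a dynamin, had 50 ± 4.22, 8.43 ± 7.38 and 0% (chr9:130985140-130986529), and the platelet phosphofructokinase PFKP had 59.5 ± 6.2, 19.2 ± 4.19 and 10.1 ± 4.78%. The BICD2 gene itself was higher with hairpin 64 than with hairpin 65 (3.63, 2.00 and 3.65 RPKM, adjusted p = 0.00214, limma), a call lost with 5 as the added constant and without hairpin 64 replicate 3 or hairpin 65 replicate 2. DLG4, a scaffold of the postsynaptic density, retained an intron at 19.7 ± 2.34, 1.01 ± 1.75 and 0.709 ± 1.23% (18.7 points, adjusted p = 0.0834, limma).

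Few introns set hairpin 65 apart with control values in full. LGALS8, galectin-8, retained an intron (chr1:236708216-236708461) at 5.36, 0 and 0% with hairpin 64, 35.7, 28.0 and 30.7% with hairpin 65, and 1.82, 0 and 0% with shNT (-29.7 points, adjusted p = 0.1, limma), and only the hairpin 65 libraries were raised. In the SBF1 exon of 78 bases, hairpin 65 (60.7 ± 1.23%) lay over hairpin 64 (45.3 ± 1.52%) and the mean of a wide control group (48.4 ± 9.89%). In the largest intron differences of this direction, the controls did not set hairpin 65 apart. ARHGAP33 was listed at 0% in all hairpin 64 libraries against 95.2, 70.0 and 86.4% with hairpin 65, but only shNT replicate 3 had a value (100%). H2AZ2 was at 0% against 61.5, 72.2 and 55.6%, with controls at 56.5, 31.1 and 0%, which overlapped both hairpins.

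YGCY sites were unevenly placed around the called exons. Among 177 exons included less with hairpin 64, the 250 bases after the exon held a mean of 1.862 sites per 100 positions, against 1.250 over all 7101 tested cassette exons, while the bases before held 1.505 (1.28) and the exons themselves 1.27 (1.464). Among 88 exons included more with hairpin 64, the bases before held 1.845 and the exons 1.984, and the bases after 1.325. At least 6 sites after the exon were found in 33.3% of the exons included less, 15.9% of those included more and 14% of all. At least 6 sites before the exon were found in 22%, 25% and 14.6%, so there the directions were close. At least 1 site lies in 91.9% of all such windows after an exon, 91% of those before and 71.5% of exons, so a site alone says little. Lengths that are multiples of 3 were found in 54.8% of exons included less and 53.4% of those included more, against 40.7% of all. These are descriptions of windows and not of bound sites.

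**Figure D3:**
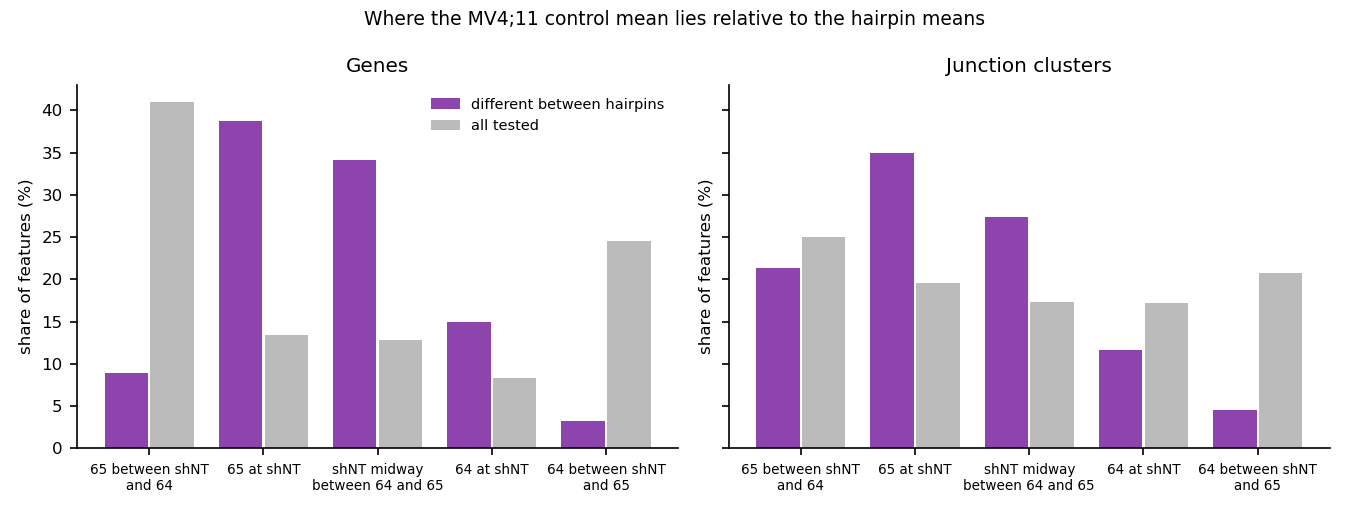
Where the shNT mean lies between the hairpins, as the percent of called and of all tested genes (one panel) and clusters (the other) in each of 5 ranges. Among called genes 38.7% have hairpin 65 at the controls and 15% have hairpin 64 there, and among called clusters 21.3% place hairpin 65 between shNT and hairpin 64. Part of the gap between called and all tested features arises by construction, because features were called on the difference between the hairpins.

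The difference between hairpins was then read in MOLM13, where each hairpin was first set against its own shNT libraries and no library is shared with MV4;11. Of 326 called genes with a value, 308 had the same direction (94.5%, against 73% of all tested genes). In MOLM13 87 of them were called in that direction (26.7%, against 2.06% of genes) and 0 in the other (0.0704%). At an adjusted p under 0.05, 4 of them passed (1.23%, against 0.0805% of all tested genes), namely MBNL1 (log2 contrast -1.88, adjusted p = 0.0481, limma), NPTN (2.04, adjusted p = 0.00063, limma), TM9SF2 (-1.24, adjusted p = 0.0446, limma) and NKD2, an antagonist of Wnt signalling (-1.89, adjusted p = 0.0446, limma), named after its values were seen.

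**Figure D4:**
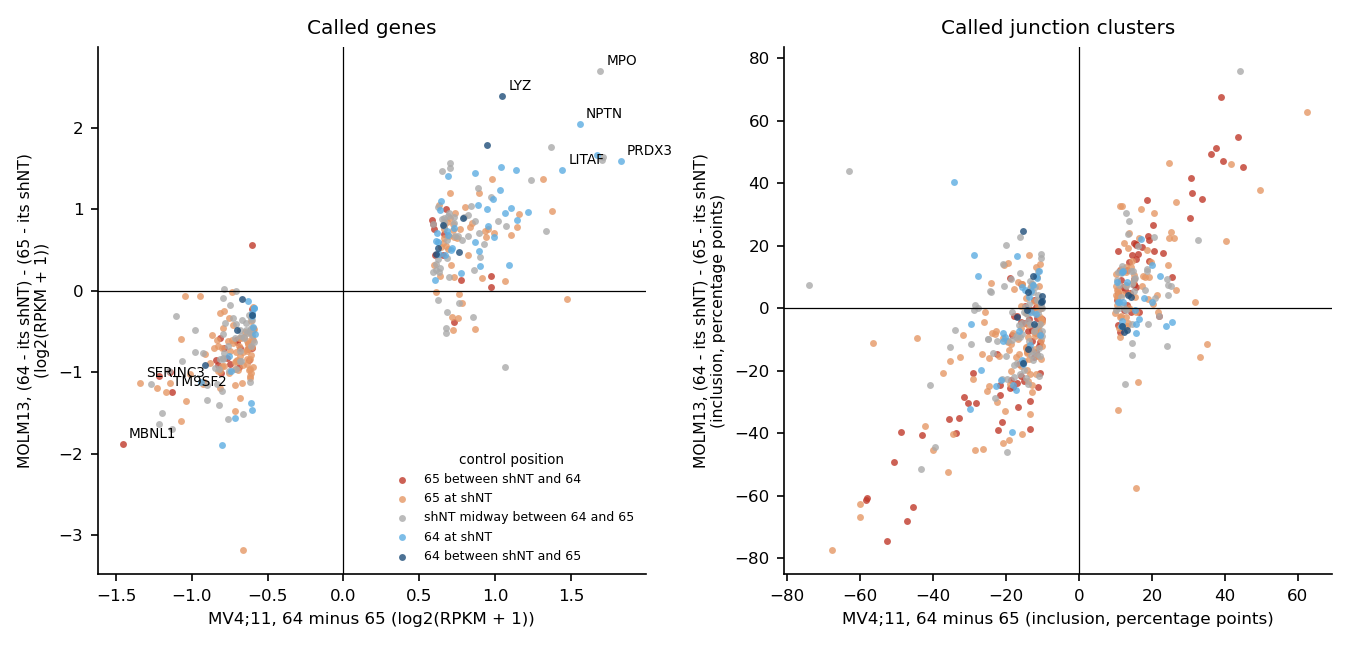
Hairpin 64 minus hairpin 65 in MV4;11 (x axis) against the same contrast in MOLM13 with each hairpin relative to its own shNT libraries (y axis), for called genes (log2) and called clusters (PSI), coloured by the position of the MV4;11 controls. Clusters without a control or MOLM13 value are left off, and 308 of 326 genes and 350 of 468 clusters have the same sign on both axes.

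Levels in MOLM13 were then read for the genes above that departed with 1 hairpin alone. PRDX3 had 103 RPKM with hairpin 64 against 110 in its shNT set, and 34.6 RPKM with hairpin 65 against 107 in its own. NPTN had 17.5 against 11.6 and 3.87 against 12.6 RPKM, SAMHD1 42.7 against 37.2 and 11.3 against 33.0 RPKM, and MTHFD2 44.2 against 47.6 and 22.9 against 64.7 RPKM. Each of these 4 had hairpin 65 well under its controls, though of their contrasts only that of NPTN passed the adjustment (PRDX3 1.59 on the log2 scale, adjusted p = 0.282, limma). Of the 50 genes with hairpin 64 at the MV4;11 controls and a MOLM13 value, all 50 had the same direction and 16 were called (32%). On the other side, SERINC3 had 6.64 RPKM with hairpin 64 against 16.1 and 17.4 RPKM with hairpin 65 against 17.9, and ATG3 had 32.5 against 80.9 and 73.7 against 78.4 RPKM. Of the 126 genes with hairpin 65 at the controls 118 had the same direction and 40 were called (31.7%). For LYZ the mean with hairpin 64 lay over its MOLM13 controls (3744 against 1318 RPKM) and under its MV4;11 controls. Whether this effect of hairpin 64 differs between the lines was not tested. HMOX1 with hairpin 64 in MOLM13 was too variable to place (113 ± 191 RPKM).

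The called clusters were read in MOLM13 in the same way. Of 468 called clusters with a MOLM13 value, 350 had the same direction (74.8%, against 51.3% of all tested clusters), 76 were called in it (16.2%, against 1.3%) and 1 against it (0.321% of all). At an adjusted p under 0.05, 28 passed in the same direction (5.98%, against 0.233% of all tested clusters) and 0 in the other (0.031%). Of the clusters with hairpin 65 between shNT and hairpin 64, 35 of 105 were called (33.3%), of those with hairpin 65 at the controls 27 of 163 (16.6%), of those with shNT midway 12 of 121 (9.92%), and of those with hairpin 64 at the controls 2 of 51 (3.92%). The 16 clusters with hairpin 64 between shNT and hairpin 65 gave 0 calls. These shares were not tested against each other. Among the exons above, BAZ2B (contrast -74.5 points, adjusted p = 1.63e-05, limma), TSPOAP1 (-66.9, adjusted p = 0.000152, limma), EXOC1 (67.7, adjusted p = 0.00079, limma), DNM2 (49.3, adjusted p = 0.000723, limma), ACTN4 (34.0, adjusted p = 0.000821, limma), FLNA (-37.8, adjusted p = 0.00258, limma) and the MBNL1 exon (54.8, adjusted p = 0.0254, limma) passed. The LGALS8 intron had a contrast of -4.92 points (adjusted p = 1, limma).

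**Figure D5:**
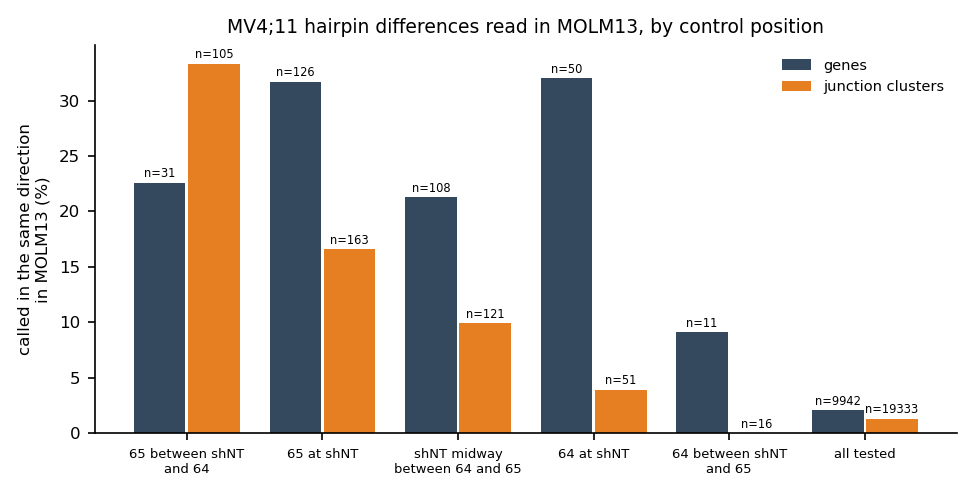
Percent of the called MV4;11 genes and clusters that were called in the same direction in the MOLM13 contrast, by where the MV4;11 controls lie. For clusters it falls from 33.3% where hairpin 65 lies between shNT and hairpin 64 to 3.92% where hairpin 64 lies at the controls, and for genes it is 22.6% and 32% in the same ranges, differences that were not tested.

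Choosing the features in MOLM13 and reading them in MV4;11 drew the members from independent libraries. Of 232 genes called for hairpin 64 against shNT in MOLM13, 70 were called between the hairpins in MV4;11 in that direction (30.2%, against 1.55 and 1.83% of all genes in the respective directions) and 0 against it. Hairpin 65 reached a median of 34.7% of the shift that hairpin 64 made from the shared MV4;11 controls, over the 120 genes that hairpin 64 moved by at least 1.5-fold that way. Keeping only genes with a large hairpin 64 shift favours shares under 100%. Of 313 genes called for hairpin 65 in MOLM13, 28 were called in MV4;11 with hairpin 65 further in the MOLM13 direction than hairpin 64 (8.95%). Another 2 were called with hairpin 64 further in it. The MV4;11 controls did not enter these counts, which are of order and not of distance moved. Hairpin 65 reached a median of 89.0% of the hairpin 64 shift over 61 genes, again only those that hairpin 64 had moved. Over the 313 genes the median log2 shift from shNT was 0.2507 with hairpin 64 and 0.425 with hairpin 65. Over the 232 genes chosen by hairpin 64 it was 0.6013 and 0.1328. For clusters, 98 of 749 chosen by hairpin 64 were called in its direction (13.1%, where 0.989% of all tested clusters were called higher and 1.52% lower with hairpin 64) and 0 against it, and the median share reached by hairpin 65 was 44.8% (306 clusters). Of 604 chosen by hairpin 65, 33 were called with hairpin 64 further in the MOLM13 direction (5.46%). Another 10 were called with hairpin 65 further in it (1.66%, near the 0.989 and 1.52% of all tested clusters). The median share was 60.2% (165 clusters). These shares too kept only clusters that hairpin 64 had moved. Over the 604 clusters the median PSI shift from shNT, as a fraction, was 0.0296 with hairpin 64 and 0.0331 with hairpin 65. Over the 749 chosen by hairpin 64 it was 0.0769 and 0.0329. By sign alone, hairpin 64 lay further in the MOLM13 direction than hairpin 65 in 326 of the 604 clusters (54%) and in 89 of the 313 genes (28.4%).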

How the data were processed

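MV4;11 and MOLM13 libraries were grouped by their labels. Per the labels and methods, STAR placed the reads on GRCh37 (hg19), and the authors deposited gene expression as RPKM and splicing as PSI, a fraction of junction reads, both computed with AltAnalyze, whose splicing module is MultiPath-PSI. RPKM and PSI were used as deposited, and the deposited values carry no read counts, so no counting interval could be given. For hairpin 65 and shNT in MV4;11 the methods state 4 libraries and the labels 3.

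Genes with a mean of at least 1 RPKM in either hairpin group were tested on log2(RPKM + 1), and events with a value in over 50% of hairpin 64 and of hairpin 65 libraries on PSI, with moderated tests in limma 3.58.1 under R 4.3.3 and data.table (version 1.17.8), the 6 hairpin libraries alone in the fit. Adjusted p-values are Benjamini-Hochberg values from limma over all tested genes or events. The thresholds are those of the study's methods. Each cluster was represented by its event of lowest p. The MOLM13 contrast was hairpin 64 minus its shNT set less hairpin 65 minus its own. Limma was also tested on simulated data, with noise independent for each feature and library and changes larger than the thresholds. Of 200 genes changed by 1 log2 unit, 98% were recovered among 10227 genes, with false calls in 0.0299% of the rest. Of 200 events changed by 0.3 PSI, 85.5% were recovered among 71358 events, with false calls in 0.346%. These rates leave out variation shared by the features of a library. Adding the line as an interaction gave 0 of 10227 genes (225 at an unadjusted p under 0.05) and 11 of 67544 events at an adjusted p under 0.05, none of them named here.

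Members, gene lists and tests were chosen with earlier results of these data known. Genes and events were named by size within the called sets and within each position class, or as the list members with the smallest p. Of the junction ends checked, 97.4% lay on GRCh37 exon edges, and 23266 of 24187 tested cassette events had coordinates. Sequences were read with Python 3.11.15, pysam 0.24.0, pandas 2.3.3 and numpy 2.4.6, and figures drawn with matplotlib 3.10.9. The position ranges, the reading of called features in MOLM13 and the omission of shNT replicate 3 were added after seeing the data. Some results are not reported here.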

Additional observations from a re-analysis of the deposited data

Results flagged for a closer look

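The named genes and events were checked for a lone library in the group of 4 MOLM13 libraries with hairpin 65, as the gap between the extreme library and its nearest neighbour divided by the range of the group. Of 111 values tested, 8 exceeded the critical value of 0.829, and chance alone flags about 5% of such groups. For PRDX3 the ratio was 0.83, with 17.4, 39.4, 38.6 and 43.0 RPKM, so replicate 1 was the lowest while all 4 lay under the 107 RPKM mean of their shNT set. For the exons the ratio was 0.936 in BAZ2B (87.8, 87.5, 95.9 and 87.2%), 0.924 in PLD1 (64.3, 90.9, 91.7 and 93.1%), 0.844 in NUMA1 (22.2, 40.5, 42.2 and 39.1%) and 0.876 in MTMR1 (53.7, 84.0, 88.1 and 83.9%). In PLD1, NUMA1, MTMR1 and PRDX3, and in the BICD2 intron given next, the lone library was replicate 1. That library enters every MOLM13 mean of hairpin 65. For the introns the ratio was 1 in H2AZ2 (0, 41.7, 0 and 0%), 1 in BICD2 (32.4, 0, 0 and 0%) and 0.862 in ARHGAP33 (79.5, 79.5, 76.2 and 100%). MV4;11 groups hold 3 libraries and were not checked this way.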

How the results depend on the processing

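The count of genes depended on the added constant: 346 called genes (159 higher, 187 lower) became 632 (240 and 392) with 0.1 and 103 (61 and 42) with 5, and the 348 genes at an adjusted p under 0.05 became 636 and 103. With a PSI difference over 20 points the 556 clusters became 205, the cassette exons included less 66 and more 40, and the introns retained more 16 and less 12. In genes with at least 5 RPKM in both groups 269 clusters were called. The 55 events at an adjusted p under 0.05 became 112 after an arcsine square-root transformation and 117 with all 9 MV4;11 libraries in the fit. Leaving out each hairpin library in turn gave 336 to 441 genes (148 to 207 higher, 184 to 234 lower, 330 to 449 at an adjusted p under 0.05), 504 to 636 clusters, 146 to 164 cassette exons less and 89 to 104 more, 43 to 80 introns more and 19 to 85 less, and 22 to 76 adjusted events (31 without hairpin 64 replicate 2, 24 without hairpin 65 replicate 2 and 22 without hairpin 65 replicate 3). The MBNL1 difference stayed between -1.53 and -1.41.

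Without shNT replicate 3, 37% of called genes had hairpin 65 between shNT and hairpin 64 by order of means, against 24.6% with it. With calls at a p of 0.001 or less, 4.05% of clusters had hairpin 65 the outermost group, against 10.3%. With MOLM13 members at that p, 26.3% of clusters chosen by hairpin 64 were called (13.1% at 0.01). Of genes chosen by hairpin 65, 19.6% were called with hairpin 65 further in the MOLM13 direction (8.95%), and so were 2.63% of clusters (1.66%). The cause of these shifts was not tested.

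Same-numbered libraries of the hairpins did not deviate together (r 0.0694, -0.0487 and 0.0525 for expression), so the replicate numbers do not pair them. With the replicate number as a block, 355 genes and 427 clusters were called, 118 cassette exons were included less, and 0 events passed an adjusted p under 0.05 (limma).

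For the named genes 660 values under the alternatives counted as unchanged, 19 lost the call and 1 gained it, and for the named events 645, 72 and 3. No value called at the main settings changed direction. A change of direction in a value not called there counted as unchanged. Depth limits low-level events most: introns listed at 0% can be missing reads.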

Other observations

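Events of other types separated the hairpins too. The promoter choice of ZMIZ2, a transcriptional coregulator, was 26.0 ± 2.52% with hairpin 64, 65.3 ± 7.76% with hairpin 65 and 44.6 ± 18.8% with shNT, and the alternative 5' site of ACAA1, a peroxisomal thiolase, was 47.5 ± 0.804, 70.5 ± 1.77 and 60.4% (adjusted p = 0.0298, limma). The alternative ends of ITSN2, an endocytic scaffold, were at 69.0 ± 2.19, 48.3 ± 3.36 and 53.9 ± 6.43%. In CYTH1, an exchange factor for ARF proteins, the event was at 57.4 ± 2.61, 93.3 ± 6.47 and 90.1 ± 6.38%, with hairpin 65 overlapping the controls, and in GIT2, which regulates ARF proteins, it was graded at 12.4 ± 1.19, 23.4 ± 0.258 and 43.6 ± 2.64%. The MBNL2 exon of 95 bases had 91.9 ± 10.6, 36.6 ± 20.8 and 13.9 ± 3.93% and was not called (adjusted p = 0.448, limma). The 153-base exon counted for TBC1D3 and TBC1D3F rests on near-identical genes and is uncertain.

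Gene groups not described above held few called genes, as did all tested genes, of which 1.55% were called higher and 1.83% lower. Of 25 tested DNA replication genes 1 was called, higher with hairpin 64 (RRM2, 11.2, 6.71 and 15.4 RPKM). For RRM2 hairpin 64 lay between hairpin 65 and shNT. That call was lost with 5 as the added constant and without hairpin 64 replicate 1 or hairpin 65 replicate 1. The list median was 0.14, and 11 of the list were higher and 1 lower at an unadjusted p under 0.05. Of all tested genes, 15.9% were higher and 22.4% lower at that p. Of 21 apoptosis regulators 1 was called (PMAIP1, median 0.12), and 8 were higher and 1 lower at that p. Of 25 adhesion and actin genes 1 was higher, the actinin ACTN1 (52.4, 32.7 and 42.6 RPKM), and 1 lower, ITGA4 (median 0.01, and -0.04 after quantile normalization). By limma 0 genes were called among 24 of G2/M and mitosis (median -0.04, 3 higher and 1 lower at an unadjusted p under 0.05), 40 SR, hnRNP and other splicing factors (-0.03, 4 and 6), 34 ribosomal proteins (-0.04, 1 and 4) and 22 of the MLL, DOT1L and SETD1 complexes (-0.09, 1 and 6). In levels 1 of 16 textbook MBNL targets was called, MBNL1 itself (-0.09), 2 of 25 genes named by the study, MBNL1 and BICD2 (0.02), and 1 of 4 tested MBNL and CELF genes (-0.05). Among 3 tested markers of other cells 0 were called by limma (2 higher and 1 lower at an unadjusted p under 0.05), and among the 15 defining markers 3 were, LYZ, MPO and CSF1R, all higher with hairpin 64. Without the fold minimum, 4 of these 15 were higher and 4 lower at an unadjusted p under 0.05.

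Members chosen at 12 days of hairpin 64 in MOLM13 gave like counts: 103 of 502 genes were called in that direction in MV4;11 (20.5%) and 3 against it, and 118 of 1000 clusters (11.8%) and 0 against it.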
